A study of Mus musculus with 6 samples.

Results

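The genes described here are Zfp36, Zfp36l1, Zfp36l2, Btg1, Btg2, Btg3, Tob1 and Tob2, whose proteins shorten the lifetime of mRNAs. They were measured in sorted haematopoietic stem cells (HSC) of mouse bone marrow, in wildtype animals and in animals with a knockdown of the transcription factor PU.1, on 6 Affymetrix mouse genome arrays. Their probe sets were those with 1 gene symbol in the platform annotation that is one of the 8 names, which gave 18 of the 44991 probe sets for 7 of the 8 genes. Btg3 had none, since its probe set 1449007_at carries 2 symbols, and it has no value below. The families were chosen by gene name, but with earlier results of this comparison known, in which Zfp36 and Btg2 were lower in the knockdown. The differences between the groups are therefore descriptions and not tests.

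The groups had 3 arrays each, with RNA pooled from 3 animals per array and amplified in 2 rounds. The sources used here do not give how PU.1 was reduced, nor the strain, the age or the surface markers of the sort. In bulk RNA of sorted cells, fewer cells of a type and less RNA per cell cannot be told apart.

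The 3 Zfp36 proteins are zinc finger proteins that bind AU-rich elements of mRNAs and bring the CCR4-NOT complex, which removes the poly(A) tail, after which the mRNA is decapped and degraded. Zfp36 itself, also called tristetraprolin, is an immediate early gene and limits cytokine mRNAs such as Tnf. Its activity is held down by the p38 and MK2 kinases. Zfp36l1 and Zfp36l2 restrain cell cycle entry in developing lymphocytes, and Zfp36l2 is needed for blood formation in mice. The Btg and Tob proteins share a domain that binds the deadenylase subunits Cnot7 and Cnot8, and they are antiproliferative. Btg2 is a p53 target and an immediate early gene, Btg1 is abundant in resting lymphocytes, and Tob1 and Tob2 also bind the poly(A) binding protein.

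Promoter windows of 250 bases before to 50 bases after the annotated start were found for 7 of the 8 genes among the RefSeq sequences of build GRCm38.p6. The gene without a window was Zfp36l2, while Btg3, which has no array value here, is among the 7. Those of Zfp36 and Btg2, the genes whose brightest probe sets separated the groups, are shown with that of Zfp36l1, a relative whose groups overlapped. The capitals mark letters that match a searched motif on either strand.
Zfp36, chr7:28379179-28379478, minus strand: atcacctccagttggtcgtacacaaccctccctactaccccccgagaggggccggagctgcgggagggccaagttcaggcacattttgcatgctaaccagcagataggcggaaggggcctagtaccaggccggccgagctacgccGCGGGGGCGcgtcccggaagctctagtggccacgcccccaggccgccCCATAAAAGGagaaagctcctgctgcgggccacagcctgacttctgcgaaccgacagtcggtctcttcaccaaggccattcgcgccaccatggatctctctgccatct
Btg2, chr1:134079106-134079405, minus strand: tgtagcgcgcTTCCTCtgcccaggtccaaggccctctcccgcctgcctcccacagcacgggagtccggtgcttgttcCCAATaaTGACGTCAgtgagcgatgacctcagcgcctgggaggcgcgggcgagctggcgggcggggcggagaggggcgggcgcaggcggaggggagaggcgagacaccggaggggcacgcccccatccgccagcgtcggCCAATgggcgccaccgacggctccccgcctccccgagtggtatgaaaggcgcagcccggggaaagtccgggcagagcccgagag
Zfp36l1, chr12:80112964-80113263, minus strand: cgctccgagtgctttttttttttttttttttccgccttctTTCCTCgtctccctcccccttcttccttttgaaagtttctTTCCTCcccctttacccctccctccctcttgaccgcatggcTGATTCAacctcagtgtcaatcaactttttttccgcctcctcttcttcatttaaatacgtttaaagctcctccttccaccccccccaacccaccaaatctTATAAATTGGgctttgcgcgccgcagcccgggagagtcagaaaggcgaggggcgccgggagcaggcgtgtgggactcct

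Both strands were searched for 7 motifs that were chosen with these windows in view. The Zfp36 window held a CArG box, the site of serum response factor, 49 to 58 bases upstream of the start and an EGR1 site (GCGGGGGCG) 97 to 105 bases upstream. Of 32851 windows of the same length, 1.63% held a CArG box and 2.91% that EGR1 site. The Btg2 window held a cyclic AMP response element (TGACGTCA), found in 1.79% of windows, 159 to 166 bases upstream, and 2 CCAAT boxes (CCAAT, 37.4% of windows). The PU.1 core (GAGGAA) stood once in the Btg2 window, on the strand opposite to the gene 235 to 240 bases upstream, and was not among the letters of the Zfp36 window. It is found in 28.3% of all windows. In the Zfp36l1 window the PU.1 core occurred at 2 places. That window also held a loose AP-1 pattern (TGANTCA, with any base as N, 7.81% of windows) 123 to 129 bases upstream. A TATA box (TATAAA, 13.6% of windows) there shares a base with a CCAAT match. Among the 7 genes with a window, that of Zfp36l1 alone matched the loose AP-1 pattern. Its letters were TGATTCA, so the narrower form TGA(C/G)TCA was in no window of these genes. Such matches describe letters and do not show that a factor binds there.

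Zfp36, the founding member of its family, is covered by the single probe set 1452519_a_at. Its deposited intensities were 1946, 2365 and 1554 in the wildtype pools 1, 2 and 3 and 1150, 800.2 and 596 in the knockdown pools 1, 2 and 3, an order kept below. The 3 knockdown pools were all below the wildtype pools, with knockdown pool 3 the lowest and wildtype pool 2 the highest. After quantile normalisation, the log2(intensity + 16) values averaged 10.92 ± 0.27 (SD, n = 3) in the wildtype and 9.73 ± 0.56 (SD, n = 3) in the knockdown. The difference, knockdown minus wildtype, was -1.18 with a standard error (SE) of 0.29 and a 95% interval of -1.85 to -0.52, or 0.44 of the wildtype level on that scale. With any 1 array left out it stayed between -1.47 and -0.93.

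Zfp36l1 was measured by 2 probe sets whose groups overlapped. The brighter one, 1450644_at, read 686, 659.8 and 466 in the wildtype pools and 342, 614 and 476 in the knockdown pools. Knockdown pool 2 thus stood within the wildtype range and knockdown pool 1 below it, and the difference was -0.28 (SE 0.21, interval -0.77 to 0.21). Without knockdown pool 1 it was -0.13. The dim probe set 1422528_a_at differed by -0.12 (SE 0.18).

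Zfp36l2 was among the brightest signals of the arrays on 1437626_at, whose mean lay above that of 99.5% of all probe sets. That probe set read 4075, 5845 and 4001 in the wildtype pools and 4249, 4637 and 4869 in the knockdown pools. The 3 knockdown values lay between the wildtype values, and the difference was -0.017 (SE 0.18, interval -0.44 to 0.41). On 1451034_at, with 215, 341 and 271 in wildtype and 237, 237 and 276 in the knockdown pools, it was -0.031 (SE 0.18). The last probe set, 1439054_at, was weak and went the other way, with 71.4, 69.6 and 83.0 in the wildtype pools and 97.8, 118 and 103 in the knockdown pools. It was the only member probe set whose knockdown values all lay above the wildtype values, by a difference of 0.51 (SE 0.14, interval 0.18 to 0.84). The 3 probe sets of this gene therefore disagree: the 2 brighter ones ran alike over the arrays, with a root mean square (RMS) difference of 0.11 log2 units between their mean-centred profiles, while the weak one was 0.34 and 0.35 from them.

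Btg2 is covered by 2 probe sets, and the groups did not overlap on either. On 1416250_at the intensities were 662, 664 and 426 in the wildtype pools and 279, 318 and 181 in the knockdown pools. On 1448272_at they were 774, 627 and 394 in the wildtype pools and 337, 321 and 184 in the knockdown pools. The margin there was small, with log2 values of 8.69 in wildtype pool 3 and 8.62 in knockdown pool 1. Pool 3 was the lowest of its own group in the wildtype as well as in the knockdown, on both probe sets. The difference was -1.05 (SE 0.26, interval -1.65 to -0.46) on the first and -0.96 (SE 0.31, interval -1.69 to -0.24) on the second. Their mean-centred profiles differed by 0.14 RMS log2 units. Without knockdown pool 3 the differences were -0.80 and -0.66.

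Btg1, the closest relative of Btg2, was measured by 3 probe sets that gave unlike values. The 2 brightest, 1437455_a_at and 1426083_a_at, differed by -0.26 (SE 0.18) and -0.032 (SE 0.13). On 1437455_a_at the intensities were 954, 1090.5 and 1074 in the wildtype pools and 587, 1022 and 941 in the knockdown pools, so that knockdown pool 1 stood below the other 5 arrays. Without that pool the difference was -0.088. The remaining probe set, 1442018_at, read 409, 726 and 334 in the wildtype pools and 138, 347 and 307 in the knockdown pools. Its difference was -0.80 (SE 0.35, interval -1.60 to 0.0042) with overlapping groups, and -0.47 without knockdown pool 1.

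Tob1 resembled this last Btg1 probe set. Its brighter probe set, 1423176_at, read 190.2, 344 and 169 in the wildtype pools and 63.9, 171 and 167 in the knockdown pools. Wildtype pool 2 was the highest and knockdown pool 1 the lowest, and the remaining 4 arrays lay close together. The difference was -0.70 (SE 0.36, interval -1.53 to 0.13), and -0.32 without knockdown pool 1. Of all 153 pairs of member probe sets, this one and Btg1 1442018_at had the smallest RMS difference between mean-centred profiles, 0.081 log2 units, less than any pair of probe sets of the same gene. The other Tob1 probe set, 1440844_at, was dim, with 38.6, 44.6 and 46.6 in wildtype and 34.9, 16.1 and 35.5 in the knockdown pools. Its groups did not overlap, by a small margin that was lost when arrays were centred on their medians instead, and its difference was -0.39 (SE 0.21), or -0.16 without knockdown pool 2.

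Tob2 had 5 probe sets, of which 4 had lower and 1 had a higher mean in the knockdown. The groups overlapped on all 5, and the differences ran from -0.50 to 0.12. On 1448666_s_at the intensities were 215, 241 and 188 in the wildtype pools and 109.8, 191 and 122 in the knockdown pools, a difference of -0.50 (SE 0.20, interval -0.97 to -0.029). Its near neighbour 1448667_x_at followed it at 0.098 RMS log2 units and differed by -0.40 (SE 0.21). Both have suffixes that mark probes shared with other transcripts. The probe sets 1417309_at and 1417310_at, with no such suffix, differed by -0.055 (SE 0.17) and -0.13 (SE 0.20), and 1431776_at by 0.12 (SE 0.15).

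**Figure D1:**
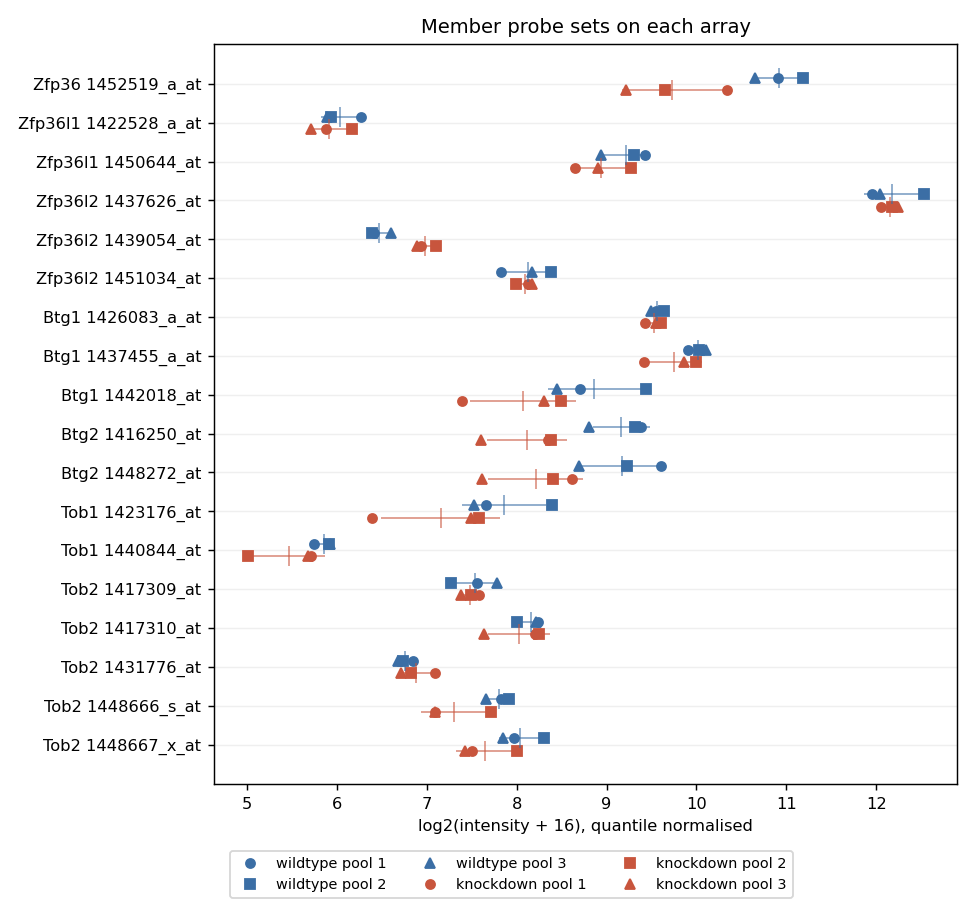
Each of the 18 member probe sets on each array, as log2(intensity + 16) after quantile normalisation on the horizontal axis. Blue marks are the 3 wildtype and red marks the 3 knockdown pools, ticks are group means and bars ± 1 SD. Zfp36 and both Btg2 probe sets show the red marks clear of the blue ones to the left, and Zfp36l2 1439054_at shows them to the right.

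Of the 18 member probe sets, 16 had a lower and 2 a higher mean in the knockdown, while 48.3% of all 44991 probe sets were lower. The median difference was -0.27 over the members and 0.009 over all probe sets. The groups did not overlap for 5 members, 4 of them lower and 1 higher, beside 12.9% of all probe sets, of which 5.26% were lower and 7.59% higher. In limma, 0 of the 18 passed at a Benjamini-Hochberg adjusted p under 0.05, beside 0% of all probe sets, and the smallest adjusted p among the members was 0.501. Members with an unadjusted p under 0.05 numbered 5, beside 7.11% of all probe sets, with 4 lower (3.33% of all) and 1 higher (3.78% of all). Since this contrast was in view when the families were proposed, nothing is read from these shares. Probe sets of a gene share its transcript and are not independent, and by the brightest probe set of each gene 7 of 7 were lower, beside 46.6% of all genes, 2 of them with groups apart, beside 5.39% of all genes. Of these 7, Zfp36l2 at -0.017 turned to 0.003 with the values as deposited, 0.076 with median centring, 0.081 with array weights, 0.16 without wildtype pool 2 and 0.036 without knockdown pool 1, and Tob2 at -0.13 turned to 0.068 without knockdown pool 3. The count of 16 became 13 with array weights or without wildtype pool 2.

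**Figure D2:**
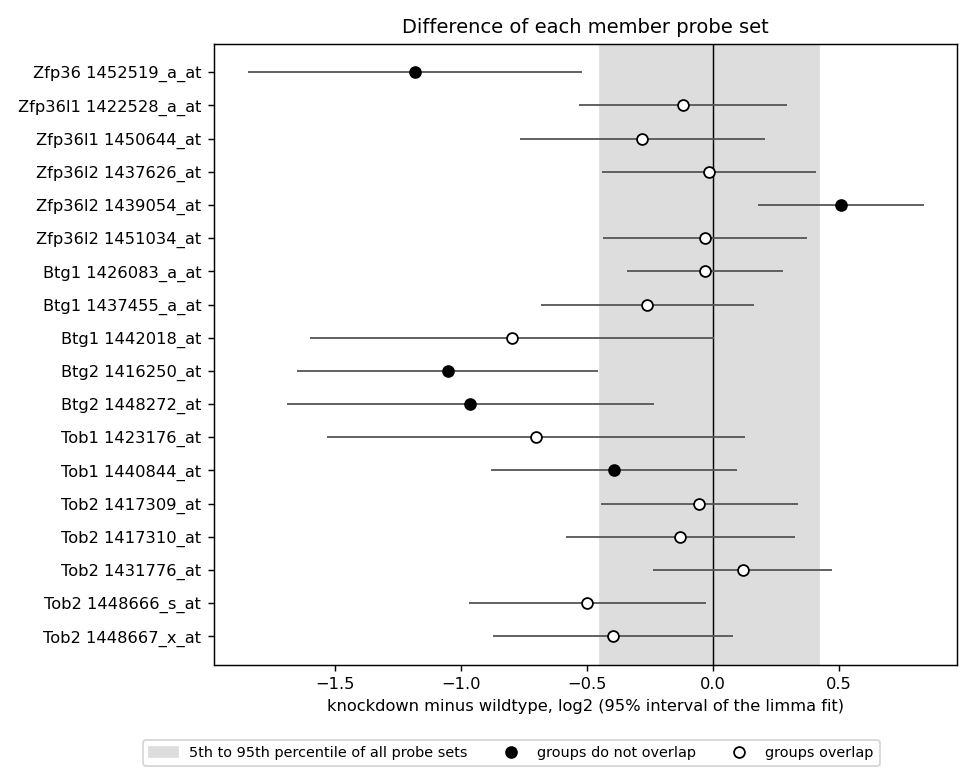
Difference of each member probe set, knockdown minus wildtype in log2 units, with the 95% interval of the limma fit. Filled points are probe sets whose groups did not overlap, and the grey band spans the 5th to 95th percentile of all 44991 differences, -0.45 to 0.42. Zfp36, both Btg2 probe sets, Btg1 1442018_at, Tob1 1423176_at and Tob2 1448666_s_at lie to the left of the band, and Zfp36l2 1439054_at to its right.

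The genes with profiles nearest to those of Zfp36 and Btg2 were sought among 12002 genes brighter than the median probe set, by the RMS difference between mean-centred log2 values over the 6 arrays. Nearest to Zfp36 were Matk, a kinase gene of blood cells (0.14), Lima1, an actin-binding protein gene (0.15), Jun (0.16), the immediate early gene Egr1 (0.18) and Cd79b, a chain of the B cell receptor (0.20). Nearest to Btg2 on 1448272_at were Cd79b (0.15), the B cell adaptor gene Blnk (0.17), the peptidase gene Scpep1 (0.18), Rab5c, a GTPase of endosomes (0.19), and the lymphoid receptor gene Slamf7 (0.21). Zfp36 and Btg2 stood 0.28 apart. Zfp36, Matk, Lima1, Jun and Egr1 were highest in wildtype pool 2, whereas Btg2 on 1448272_at and its 5 neighbours were highest in wildtype pool 1. The neighbours were picked on these same 6 values, so a shared highest or lowest pool is favoured by the choice. On Btg2 1416250_at, wildtype pools 1 and 2 were close, at log2 values of 9.38 and 9.31. Jun differed by -1.13 (SE 0.23), and Spi1, which encodes PU.1, by -1.76 (SE 0.43), with its lowest value in knockdown pool 3 as for Zfp36 and Btg2.

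**Figure D3:**
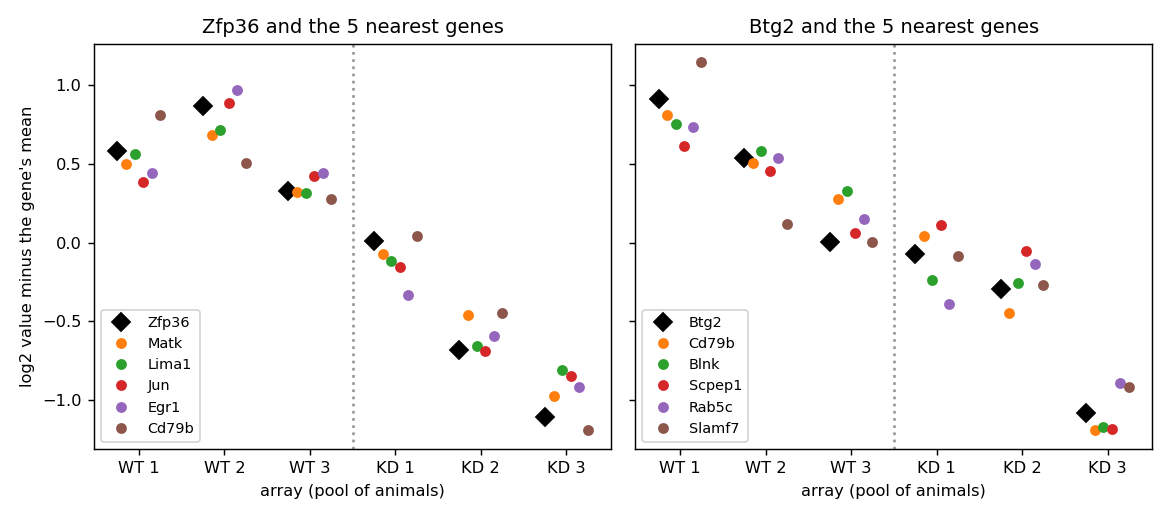
Mean-centred log2 values of Zfp36 (left) and Btg2 (right), as black diamonds, with the 5 genes of nearest profile as coloured points, on the 3 wildtype (WT) and 3 knockdown (KD) arrays. Knockdown pool 3 holds the lowest value of every gene shown, which the choice of neighbours by likeness on these arrays favours. The pools have no order within a group.

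Markers of HSC and of other cells were read on the same arrays. Of 16 HSC markers, 14 were measured, and all 14 lay above the median probe set. Among them were Kit at 10.68 and 10.29, Hlf at 10.81 and 10.66 and Procr at 9.77 and 10.05 (mean log2 in wildtype and knockdown). All 10 neutrophil and all 5 erythroid genes measured also lay above it, as did 3 to 7 genes of each other list. This position therefore does not tell HSC from other cells. Of the 14 HSC markers, 10 were lower and 4 higher in the knockdown, with a median difference of -0.13. Lower with groups apart were 2 of the 14, beside 5.39% of all genes. Neutrophil list means were 10.70 to 12.45 on the 6 arrays, on each above the HSC list mean, which was 9.10 to 9.75. Neutrophil markers were higher in the knockdown for 8 of 10 genes (median difference 0.41). T and NK cell markers were higher for 6 of 7 genes (median difference 0.15). B cell markers, which include Cd79b and Blnk, were lower in the knockdown for 5 of 6 genes. Their summed intensity was 1191 to 1992 in wildtype and 481 to 966 in the knockdown pools, lowest in knockdown pool 3. Monocyte and macrophage markers were lower for 8 of 8 genes, with sums of 6172 to 9025 and 3541 to 6684, again lowest in knockdown pool 3. Sums of eosinophil markers were 1993 to 12676 in wildtype and 238 to 1204 in the knockdown pools, with 4 of 5 genes lower. Mast cell and basophil markers were higher for 5 of 5 genes, with sums of 429 to 1049.7 and 1619 to 3517. Megakaryocyte and platelet markers were lower for 7 of 8 genes, with sums of 7538 to 15243 and 2551 to 7908. The eosinophil, B cell, monocyte and megakaryocyte lists each had 3 lower genes with groups apart. Higher with groups apart were 3 mast cell and basophil and 2 neutrophil genes, beside 8.42% of all genes. The stromal and endothelial list had 1 gene apart in each direction. Wildtype pool 2, the highest array for Zfp36, Jun, Egr1 and the brighter Tob1 probe set, had the lowest wildtype sum in 8 of the 10 lists. Its list means were 10.70 for neutrophil, 7.67 for eosinophil and 8.93 for megakaryocyte and platelet markers, beside 12.39 and 11.87, 10.00 and 9.22, and 10.03 and 9.88 in wildtype pools 1 and 3. Its HSC list mean was the highest, at 9.75 beside 9.10 and 9.20. No marker gene of the 10 lists was at the floor on any array. The part of these cells in the values of Zfp36 and Btg2 was not tested.

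**Figure D4:**
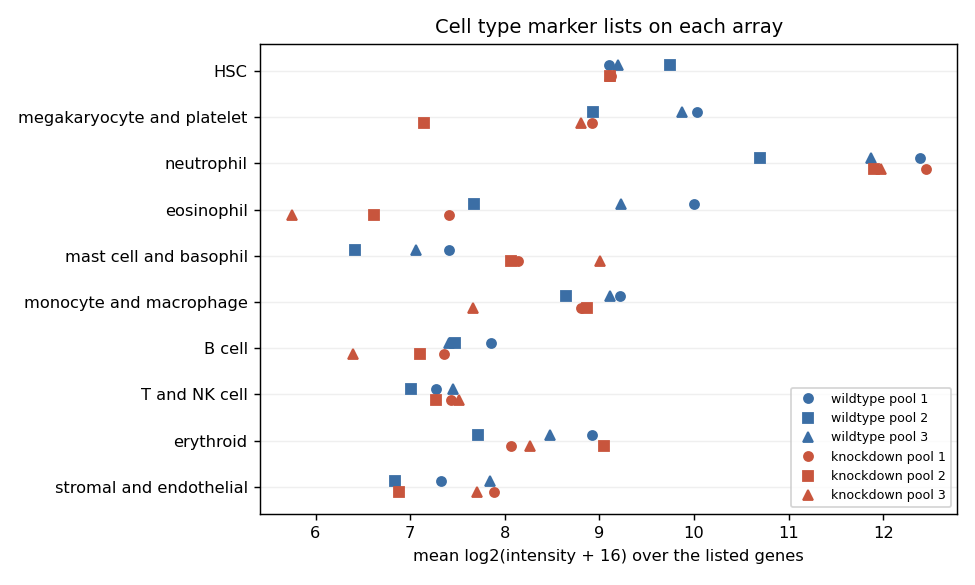
Mean log2(intensity + 16) of each of the 10 marker lists on each array, blue for wildtype and red for the knockdown pools. Eosinophil, B cell and, narrowly, megakaryocyte and platelet markers show all red marks to the left of the blue ones, mast cell and basophil markers to the right.

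Lists were made of the machinery that the Zfp36 and Btg/Tob proteins recruit or depend on. Others held further proteins that bind decay elements, and the kinases and phosphatases upstream of Zfp36. Together these 6 decay pathway lists had 74 genes, of which 71 were measured. Of these, 31 had a lower and 40 a higher mean in the knockdown, with a median difference of 0.041, while 46.6% of all 18186 genes were lower, with a median of 0.018. In limma, 0 of 71 passed at an adjusted p under 0.05, beside 0% of all genes. At an unadjusted p under 0.05, 1 was lower and 3 were higher, beside 3.52% and 4.1% of all genes. The groups did not overlap for 10 of 71, or 14.1%, beside 13.8% of all genes.

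Among the deadenylases, 9 of 14 genes were lower and the median difference was -0.049. The Btg and Tob binding subunits Cnot7 and Cnot8 differed by -0.11 (SE 0.14) and 0.082 (SE 0.18). The genes with the largest test statistic were Tnks1bp1, which encodes a protein found with CCR4-NOT (-0.53, SE 0.20), the poly(A) ribonuclease gene Parn (-0.28, SE 0.17), Cnot9 (0.14, SE 0.13) and Pan3 (0.16, SE 0.19). Tnks1bp1 read 7.16, 7.35 and 7.02 in wildtype and 7.04, 6.46 and 6.45 in the knockdown pools on the log2 scale, with overlapping groups.

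Of the poly(A) binding proteins and their partners, 4 of 6 genes were higher. Pabpc1, which coats poly(A) tails, differed by -0.0042 (SE 0.13), Paip2b by -0.24 (SE 0.17) and Paip1 by 0.23 (SE 0.14). Prmt1, a methyltransferase that binds Btg1 and Btg2, differed by 0.41 (SE 0.31). Decapping and decay genes were lower in 8 and higher in 9 of 17 cases, with Dcp1a at -0.19 (SE 0.19), Lsm14b at -0.19 (SE 0.19), the scavenger decapping enzyme gene Dcps at 0.39 (SE 0.17) and Lsm2 at 0.37 (SE 0.20). For Dcp1a, only 1 of 3 probe sets had this sign.

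The list for the RNA exosome, which degrades RNA from the 3' end, also held its cofactor genes Skiv2l, Ttc37 and Wdr61. Genes of this list were higher in 12 of 15 cases with a median difference of 0.13. The groups did not overlap for 5 of them, all higher, beside 8.42% of all genes. Exosc3 averaged 8.36 ± 0.25 (SD, n = 3) in wildtype and 8.79 ± 0.11 (SD, n = 3) in the knockdown pools, a difference of 0.43 (SE 0.17), and Exosc2 differed by 0.37 (SE 0.14). In the other direction were Exosc9 at -0.32 (SE 0.23) and Ttc37 at -0.17 (SE 0.18). The limma adjusted p of Exosc3 and Exosc2 was 0.676, and 0 of the 15 passed.

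Other proteins that bind decay elements were lower in 6 and higher in 5 of 11 cases. Rc3h2, a relative of roquin, differed by -0.57 (SE 0.27) with groups apart, and the ribonuclease family gene Zc3h12d by -0.67 (SE 0.29). Khsrp and Auh were at 0.20 (SE 0.15) and 0.15 (SE 0.16), Khsrp with this sign on 1 of 3 probe sets. Of the kinases and phosphatases upstream of Zfp36, 3 of 8 were lower, with Mapkapk2, the MK2 gene, at -0.43 (SE 0.25), Mapkapk3 at -0.13 (SE 0.28), Mapk11 at 0.23 (SE 0.16) and Map2k6 at 0.17 (SE 0.17). The groups overlapped for all 8.

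The mRNAs known as targets of the Zfp36 proteins went both ways, with 15 lower and 12 higher of 27 measured and a median difference of -0.05. In limma, 0 of 27 passed at an adjusted p under 0.05, beside 0% of all genes, and 4 lower and 3 higher genes had an unadjusted p under 0.05, beside 3.52% and 4.1% of all genes. The groups did not overlap for 5 lower and 3 higher genes, beside 5.39% and 8.42% of all genes. Plk3, a polo-like kinase gene, had log2 values of 6.15, 6.11 and 6.09 in wildtype and 6.72, 6.74 and 6.87 in the knockdown pools, a difference of 0.66 (SE 0.13). Its signal was low, with a mean above that of only 44.4% of all probe sets. Myc differed by 0.46 (SE 0.14). Lower in the knockdown were Dusp1, a MAP kinase phosphatase gene, at -0.91 (SE 0.22) and the chemokine gene Cxcl2 at -0.69 (SE 0.16). Cxcl2 was dim, with intensities of 27.35, 43.95 and 36.65 in the wildtype and 16.73, 14.76 and 14.14 in the knockdown pools. Its low signal limits what that difference shows. The chemokine gene Ccl3, chosen after its value was seen, differed by -1.76 (SE 0.55). Tnf, the best known target of Zfp36, had intensities of 132, 134 and 91.5 in the wildtype and 103, 136 and 135 in the knockdown, a log2 difference of 0.15 (SE 0.18) with overlapping groups. Several of these mRNAs, among them Dusp1, Fos and Myc, are immediate early genes, as Zfp36 and Btg2 are.

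**Figure D5:**
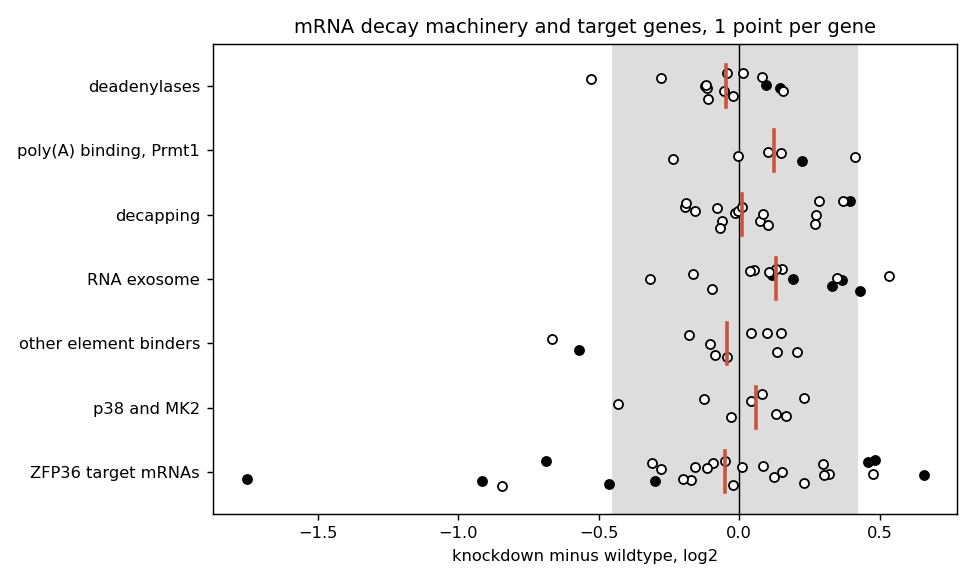
Knockdown minus wildtype difference in log2 units of each gene of the 6 decay pathway lists and of the target list, with the list median as a red line. Filled points are genes whose groups did not overlap, and the grey band is the 5th to 95th percentile of all probe sets. The medians lie between -0.05 and 0.13, and the target mRNAs spread to both sides, from -1.76 to 0.66.

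Btg4, an oocyte member of the Btg family outside the 8 genes, was dim, with log2 values of 5.66, 5.68 and 5.50 in wildtype and 5.58, 6.33 and 5.60 in the knockdown pools.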

How the data were processed

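Sorted HSC RNA of 3 wildtype and 3 knockdown pools was amplified and hybridised to 1-channel arrays, per the labels' protocols. The authors deposited 1 intensity per probe set and array on a linear scale. Which software and scaling made them is not stated in the sources used here. Array medians were 81.4 to 91.5, and 264 to 409 values per array were below 0. On the quantile normalised log2 scale described below, correlations were 0.955 to 0.973 between arrays of different groups. They were 0.964 to 0.979 within the wildtype and 0.968 to 0.974 within the knockdown.

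Values under 1 were set to 1, log2(value + 16) was taken, and arrays were quantile normalised because their medians differed by over 0.1. A fold of a weak probe set is understated on this scale. All 44991 probe sets were fitted with limma 3.58.1 in R 4.3.3 (two-sided, Benjamini-Hochberg adjustment over all probe sets, threshold 0.05), after a check on simulated data. The replicates are pools of separate animals, and 3 arrays per group limit the precision. Symbols came from the platform annotation, where 34921 probe sets had 1 symbol. For lists, a gene was represented by its brightest probe set.

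The members and lists were chosen with earlier results of these data known. Named were all members, the 5 nearest profiles of members whose brightest probe set had groups apart, and up to 2 genes per direction and pathway list by limma statistic. Cnot7, Cnot8, Tnf and Ccl3 were added after their values were seen. Sequences are RefSeq's, of GRCm38.p6. The alternatives are given in the closing section. The plots were made in Python 3.11.15 (matplotlib 3.10.9).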

Additional observations from a re-analysis of the deposited data

How the results depend on the processing

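The differences of Zfp36, both Btg2 probe sets and the weak Zfp36l2 probe set kept their sign under every alternative run, as did 13 of the 18 member probe sets in all. The differences that changed sign were those of Zfp36l2 1437626_at (0.081 with array weights), Zfp36l2 1451034_at, Btg1 1426083_a_at, and, with 1 array left out, Tob2 1417309_at and 1417310_at. With a pseudocount of 64 the weak Zfp36l2 probe set moved from 0.51 to 0.35 and the dim Tob1 1440844_at from -0.39 to -0.19, and with a pseudocount of 1 the latter was -0.59. The number of members with groups apart, 5 with all arrays, ranged from 5 to 12 with 1 array left out, the highest without knockdown pool 2, and was 9 without wildtype pool 3; fewer arrays make overlap less likely. With 1 array left out, 0 to 2 probe sets of the table passed, 0 of them members. Whether the replicate numbers shared by the groups pair the arrays cannot be told from 3 arrays per group. Correlations of same-numbered deviations from the group means were 0.18, 0.061 and -0.039, beside -0.20 to 0.15 for unlike numbers. With the replicate block, 0 probe sets passed, 16 members were lower, and the smallest limma adjusted p of a member was 0.244. Lower genes of the decay pathway lists numbered 27 to 33 over the alternatives and lower target mRNAs 14 to 16, apart from 11 of the 21 targets kept by the filter on dim probe sets. The filter, at the 40th percentile of the mean, removed the dim probe sets Zfp36l1 1422528_a_at and Tob1 1440844_at, whose signal limits what their values show.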
